A study of Homo sapiens with 2 samples.

Results

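The genes described here encode the proteins of the cytosolic ribosome. They were chosen by name: every protein-coding gene whose symbol is RPL or RPS followed by a number, RPLP0 to RPLP2, or RPSA. The rule found 84 of the 62700 genes in the deposited table, namely 77 core genes (31 of the small subunit and 46 of the large subunit) and 7 paralogs with an L in their name, such as RPL22L1. RNA came from K562, a human leukemia line with erythroid features, in 2 libraries that both carried dCas9-KRAB, a Cas9 that cannot cut and is fused to a repressor domain. In the first library the cells received a control guide RNA, and in the second a guide against SMC1A, which encodes a core subunit of the cohesin ring. Both are labelled E50_dCas9-KRAB, with WT in the title, and E50 is not explained in the labels. Guides came on a lentivirus, puromycin (1 µg/ml) was applied from day 2 to day 6, and cells with high blue fluorescence were sorted before poly(A) RNA was taken.

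Library totals were 18349209 counts for the control guide and 16864207 for the SMC1A guide. SMC1A itself stood at 460.4 CPM (counts per 1000000 of the scaled library size) in the control library and at 16.3 CPM under its own guide. Of 8 erythroid markers, 8 had at least 1969 counts in each library, 6 were lower with the SMC1A guide and 2 higher, with a summed level of 14347 and 13135 CPM. Of these, HBG1, HBG2, HBZ and TFRC were between 2.65-fold and 3.20-fold lower. Of 7 markers of other cells, 6 were higher with the SMC1A guide, with a summed level of 36.5 and 92.1 CPM, and EPCAM was lower, at 169.7 and 114.5 CPM. COL3A1 had 2 and 154 counts, and none of the 7 was at 0. The part of both marker lists in the results was not tested. With 1 library for each guide there is no replicate check and no p-value. Every difference is between these 2 libraries. The intervals are 95% intervals for counting error only, exact except for the fold of the paralog RPL7L1 over its partner. A smaller share of cells that express a gene cannot be told apart from less RNA per cell.

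Ribosomal proteins are made in matched amounts and assembled with ribosomal RNA in the nucleolus into a small subunit, which reads the mRNA, and a large subunit, which joins the amino acids. Most of their mRNAs begin with a C followed by a run of C and T bases, the 5′ terminal oligopyrimidine (TOP) tract, through which mTOR and the RNA-binding protein LARP1 set their translation and stability. Loss of a single copy of some of these genes causes Diamond-Blackfan anemia, a failure of red cell formation, so the family is of interest in an erythroid line.

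The TOP tract could be read in the start windows that RefSeq gives for GRCh38.p14, which held 62 of the 77 core genes and 5 of the 7 paralogs. It was searched as a C at the annotated start followed by at least 4 bases that are each C or T. Of the 62 core genes, 46 had the tract at a listed start and 16 did not. Among the paralogs it was found in RPL22L1. The windows below run from 10 bases before to 20 bases from the start and show the core genes with the 4 lowest and the 4 highest log2 ratios among those with a window to print, in order from the lowest, and then paralogs and the partner RPS27. Of these 8 core genes, 3 have the tract at the listed start. Capitals mark the tract, and windows in lower case have none at the listed start.
RPS29 (chr14:49598691-49598720, minus strand): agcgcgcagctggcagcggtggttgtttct
RPL26 (chr17:8383174-8383203, minus strand): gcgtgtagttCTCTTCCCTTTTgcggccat
RPL19 (chr17:39200273-39200302, plus strand): tctccccttcgcagataatgggaggagccg
RPS26 (chr12:56041908-56041937, plus strand): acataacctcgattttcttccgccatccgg
RPL22 (chr1:6199576-6199605, minus strand): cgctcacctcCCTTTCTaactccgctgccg
RPL15 (chr3:23916535-23916564, plus strand): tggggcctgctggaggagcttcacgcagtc
RPL39 (chrX:119791611-119791640, minus strand): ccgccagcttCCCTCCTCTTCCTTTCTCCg
RPS4X (chrX:72277229-72277258, minus strand): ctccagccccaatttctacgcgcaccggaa
RPL22L1 (chr3:170870176-170870205, minus strand): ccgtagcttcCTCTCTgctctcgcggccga
RPL26L1 (chr5:172958719-172958748, plus strand): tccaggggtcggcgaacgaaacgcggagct
RPL7L1 (chr6:42879606-42879635, plus strand): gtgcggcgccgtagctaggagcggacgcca
RPS27L (chr15:63157458-63157487, minus strand): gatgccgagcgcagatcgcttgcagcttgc
RPS27 (chr1:153990752-153990781, plus strand): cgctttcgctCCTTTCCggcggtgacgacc

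On the main scale (TMM), all 77 core genes were lower with the SMC1A guide, by similar amounts. Together they took 5.84% of all counts in the control library (5.83 to 5.85), against 4.93% in the SMC1A library (4.92 to 4.94). Their summed level was 61073 CPM in the first and 47173 CPM in the second, a log2 ratio (SMC1A guide over control guide) of -0.37. The median log2 ratio of the 77 genes was -0.39, beside -0.05 over all 11321 genes with at least 100 counts. Every core gene passed that filter, the lowest with 4334 counts. By at least 20% (a ratio of 0.8 or below), 56 core genes were lower (72.7%), against a background of 24.5% of all genes tested. By at least 25% (the same fold upward), 0 were higher, against 21.9%. Past 2-fold there were 0 core genes, whereas 7.44% of all genes were past it, 2.32% lower and 5.11% higher. The whole counting interval lay below the control for 77 of 77 core genes and for 38.7% of all genes tested. Intervals narrow as counts rise, and many genes tested had fewer counts than any core gene, so these 2 shares are not matched for depth.

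The family was narrow as well as low. The standard deviation of the log2 ratio was 0.10 across the 77 core genes and 0.64 across all genes tested, and 54 core genes lay within 0.1 of the core median. The 1603 other protein-coding genes with at least 4334 counts, the count of the lowest core gene, had a standard deviation of 0.45. These abundant genes were also lower than the rest, with a median of -0.20 and 34.8% at least 20% lower. The count of lowered genes depends on the scaling and on the trend with expression level. By library totals the core median was -0.26, RPS4X lay above 0 at 0.01, and 15 core genes (19.5%) were at least 20% lower, close to the 15.4% of all genes tested. When the trend of the ratio with expression level was removed, the core median was -0.12, 9 of 77 lay above 0, and 3 core genes (3.90%) were at least 20% lower, fewer than the 20.6% of all genes tested.

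**Figure D1:**
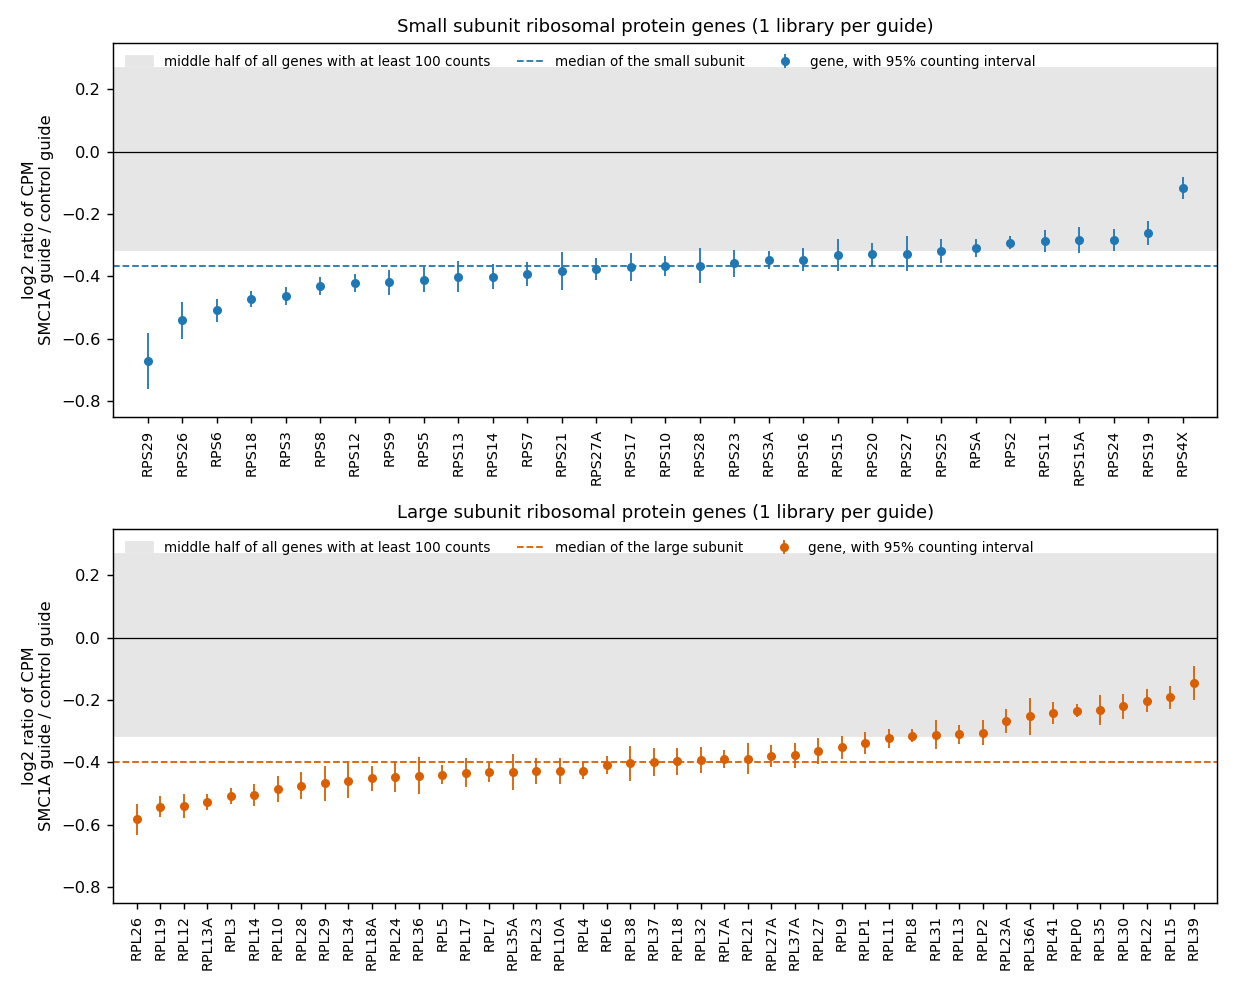
Log2 ratio of CPM, SMC1A guide over control guide, for each core gene of the small subunit (upper panel) and the large subunit (lower panel), sorted by value, with 95% counting intervals. Each dashed line is the subunit's median, and the grey band spans the quartiles of all genes with at least 100 counts. All 77 points lie below 0, from RPS29 at -0.67 to RPS4X at -0.12.

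The subunits were close to each other. The median log2 ratio was -0.37 for the 31 small subunit genes (range -0.67 to -0.12) and -0.40 for the 46 large subunit genes (-0.58 to -0.15). At least 20% lower were 23 of 31 (74.2%) and 33 of 46 (71.7%), beside 24.5% of all genes tested and 34.8% of the abundant protein-coding genes. Like the count for the whole family, these depend on the scaling and on the trend with expression level. The number of small subunit counts per large subunit count, a ratio inside each library that no scaling touches, was 0.671 in the control library and 0.679 in the SMC1A library.

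Levels can be compared between genes only per length, here per kilobase of the annotated principal transcript. By this measure the highest small subunit genes were RPS18, in the head of the subunit, at 2580 and 1861 CPM per kilobase, RPS2, at the mRNA entry, at 2226 and 1819, and RPS12 at 1937 and 1447, each with the control guide first. Highest in the large subunit were RPL8, which lies near the peptidyl transferase center, at 2296 and 1846 CPM per kilobase, RPLP0 at 1822 and 1548, and RPL41, which encodes a very short peptide, at 1667 and 1410. All 6 were lower with the SMC1A guide. For some members the annotated principal transcript is long (7686 bases for RPL37), so such genes are pushed down, the order holds only for this annotation, and its low end is not given.

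**Figure D2:**
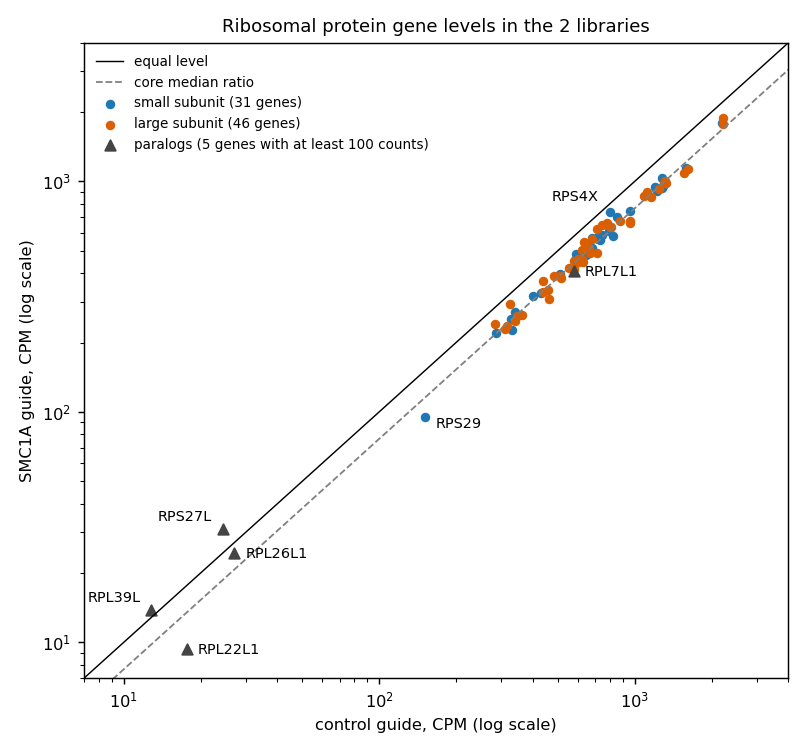
Level of each gene with the control guide (horizontal axis, CPM) and with the SMC1A guide (vertical axis, CPM), both on log scales, not corrected for length. The solid line marks equal levels and the dashed line the core median ratio of -0.39 on the log2 scale. Core genes of both subunits lie along the dashed line, and RPS27L and RPL39L lie above the solid line.

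In the small subunit, RPS29 had the lowest ratio. It encodes a small zinc-binding protein of the head of the subunit (ENSG00000213741.11, chromosome 14, 49570984 to 49599164, GRCh38). Its level was 151.4 CPM (2657 counts) in the control library and 95.1 CPM (1677 counts) in the SMC1A library, a log2 ratio of -0.67 (-0.76 to -0.58). It was also the core gene with the fewest counts. RPS26, which lies at the mRNA exit, stood at 330.2 and 226.9 CPM (-0.54, interval -0.60 to -0.48). RPS6, the protein phosphorylated by S6 kinase, stood at 825.0 and 580.0 CPM (-0.51), and RPS18 at 1582 and 1141 CPM (-0.47). In this order, the interval of each of the 4 genes overlaps that of the next.

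At the other end of the small subunit stood RPS4X, the X-linked copy of the RPS4 gene pair (chromosome X, 72255679 to 72277300). Its level was 799.4 CPM (14025 counts) and 737.4 CPM (13006 counts), a log2 ratio of -0.12 (-0.15 to -0.08). RPS4X was thus 1.31% of the core counts in the control library and 1.56% in the other. Next came RPS19, the gene most often mutated in Diamond-Blackfan anemia, at 680.9 and 568.5 CPM (-0.26, interval -0.30 to -0.22). RPS24 and RPS15A followed, both at -0.28, with levels of 784.5 and 644.8 CPM and of 589.3 and 484.0 CPM. The interval of RPS4X lies above those of these 3 genes, which overlap one another. The 14 genes of the head of the small subunit had a median of -0.37 and the other 17 a median of -0.36.

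In the large subunit, RPL26, a protein at the exit of the peptide tunnel, was lowest. Its level was 460.8 CPM (8085 counts) and 307.5 CPM (5424 counts), a log2 ratio of -0.58 (-0.63 to -0.53; chromosome 17, 8377516 to 8383250). RPL19, also at the tunnel exit, stood at 957.1 and 657.3 CPM (-0.54). RPL12, at the base of the stalk that binds translation factors, stood at 709.7 and 488.1 CPM (-0.54). RPL13A, known also for a role outside the ribosome in silencing of inflammatory mRNAs, stood at 1564 and 1086 CPM (-0.53). The intervals of these 4 genes overlap, so their order is not resolved.

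The least lowered genes of the large subunit were RPL39, RPL15, RPL22 and RPL30. RPL39, a short protein inside the peptide tunnel (chromosome X, 119786504 to 119791643), stood at 323.9 CPM (5683 counts) and 292.6 CPM (5160 counts), a log2 ratio of -0.15 (-0.20 to -0.09). RPL15 stood at 711.1 and 623.0 CPM (-0.19), RPL22, an RNA-binding protein, at 742.3 and 645.4 CPM (-0.20), and RPL30 at 634.1 and 544.4 CPM (-0.22). Their intervals overlap, so this order is not resolved either. As measured against the summed core counts, 52 of 77 genes had a counting interval that left out the common ratio, 29 of them lower and 23 higher. The members therefore differed among themselves by more than counting error, although the spread between cultures is unknown.

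Proteins that work side by side did not share 1 value. The stalk recruits elongation factors and is built from RPLP0, which anchors it, the pair RPLP1 and RPLP2, and RPL12 at its base. RPLP0 stood at 2219 and 1886 CPM (log2 ratio -0.23, interval -0.26 to -0.21), RPLP2 at -0.30, RPLP1 at -0.34 and RPL12 at -0.54. The interval of RPL12 (-0.58 to -0.50) lies apart from those of the other 3. RPL5 and RPL11 form a particle with 5S ribosomal RNA and bind MDM2 when ribosome assembly fails. RPL5 stood at 1163 and 857.1 CPM (-0.44, interval -0.47 to -0.41) and RPL11 at 1086 and 867.9 CPM (-0.32, interval -0.35 to -0.29), which do not overlap. The 8 tunnel exit genes spanned the whole range of the large subunit, from RPL26 to RPL39, with a median of -0.29, beside -0.40 for the other 38.

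Genes mutated in Diamond-Blackfan anemia lay where the rest of the family lay. The 19 listed had a median log2 ratio of -0.37, with 13 at least 20% lower (68.4%). The other 58 core genes had a median of -0.40, with 43 at least 20% lower (74.1%). Both shares stand beside 24.5% of all genes tested and 34.8% of the abundant protein-coding genes. RPS29, RPL26, RPL15 and RPL35 (-0.23) are the members of the list with the 2 lowest and 2 highest ratios.

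Position on the chromosomes was also compared, because SMC1A is X-linked. The 4 core genes on chromosome X had ratios of -0.49 (RPL10), -0.25 (RPL36A), -0.15 (RPL39) and -0.12 (RPS4X), a median of -0.20, and the 73 on other chromosomes a median of -0.39. RPS4X and RPL39 were the 2 least lowered core genes, while RPL10 lay below the core median. RPL36A shares exons with the readthrough gene RPL36A-HNRNPH2, which had 1057 and 1121 counts, so its count depends on how reads were divided. Core genes with a small nucleolar RNA gene inside their span (28) had a median of -0.40 and those without (49) a median of -0.38.

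The paralogs lay on both sides of 0. Of the 7, 5 had at least 100 counts, with 2 at least 20% lower (background 24.5%) and 1 at least 25% higher (background 21.9%). RPL22L1, a close relative of RPL22 that can take its place in the ribosome (chromosome 3, 170864875 to 170870483), stood at 17.7 CPM (311 counts) and 9.36 CPM (165 counts). Its log2 ratio of -0.92 (-1.20 to -0.65) was below that of every core gene, although its interval overlaps that of RPS29. RPS27L, a relative of RPS27 (chromosome 15, 63125872 to 63158021), stood at 24.5 CPM (429 counts) and 31.2 CPM (550 counts), a log2 ratio of 0.35 (0.17 to 0.54). It was the only gene of the family with at least 100 counts whose whole interval lay above 0.

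RPL7L1, which acts in the assembly of the large subunit in the nucleolus, was by far the most abundant paralog, at 577.1 and 408.9 CPM. Its log2 ratio of -0.50 (-0.54 to -0.45) lay within the core range. RPL26L1 stood at 27.1 and 24.4 CPM (-0.15, interval -0.34 to 0.04) and RPL39L at 12.8 and 13.9 CPM (0.11, interval -0.15 to 0.38). Both intervals include 0. The muscle gene RPL3L had 0 and 3 counts and the testis gene RPL10L 0 in both libraries, which allows up to 0.171 CPM in the control library and 0.170 CPM in the SMC1A library.

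Setting each paralog against its partner within a library removes the scaling. Per 100 RPL22 counts there were 2.39 RPL22L1 counts in the control library and 1.45 in the SMC1A library, a fold of 0.607 (interval 0.499 to 0.737). RPS27L per 100 RPS27 counts went the other way, from 7.20 to 11.5, a fold of 1.60 (1.40 to 1.83). RPL26L1 per 100 RPL26 counts was 5.89 and 7.95 (1.35, interval 1.18 to 1.55). These 3 pairs differed most between the libraries, each beyond counting error. RPL39L per 100 RPL39 counts was 3.96 and 4.75, with an interval of the fold (0.993 to 1.45) that includes no difference. RPL7L1 per 100 RPL7 counts was 46.1 and 44.1, a fold of 0.956 (0.922 to 0.992). RPL36AL, a relative of RPL36A outside the naming rule, had 32.1 and 35.2 counts per 100 of its partner (1.1-fold, interval 1.01 to 1.19). The intervals of RPL7L1 and RPL36AL also leave out no difference, though their folds were small.

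**Figure D3:**
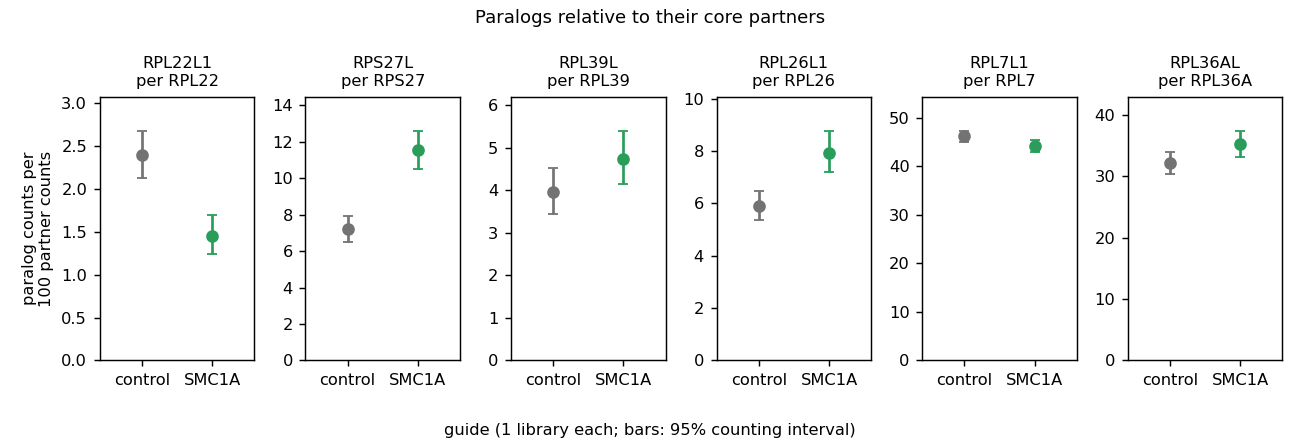
Counts of a paralog per 100 counts of its core partner (vertical axis, its own scale in each panel, from 0) in the control and SMC1A libraries, with 95% counting intervals. RPL22L1 is lower relative to RPL22 with the SMC1A guide, and RPS27L and RPL26L1 are higher relative to RPS27 and RPL26.

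Ribosomal proteins that the naming rule leaves out lay in the core range or at its edge. FAU, which encodes a small subunit protein fused to a ubiquitin-like part, stood at 314.7 and 219.2 CPM (log2 ratio -0.52). RACK1, a scaffold on the head of the small subunit, stood at 747.7 and 566.5 CPM (-0.40). RPL36AL was at -0.12, or 0.01 by library totals, which raise every ratio by 0.13 and also turn the sign of RPS4X, HEATR3, MTOR, NOP53 and MDM4.

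Other mRNAs known for a TOP tract had nearly the same median. The list of 21, which includes FAU and RACK1, had a median log2 ratio of -0.37, with 14 at least 20% lower (66.7%, background 24.5%, abundant protein-coding genes 34.8%) and 0 at least 25% higher (background 21.9%). The nucleolar chaperone gene NPM1 stood at 1636 and 973.2 CPM (-0.75) and the initiation factor gene EIF4B at 840.1 and 557.7 CPM (-0.59). Least lowered were the poly(A)-binding protein gene PABPC1, at 2962 and 2638 CPM (-0.17), and TPT1, at 884.5 and 888.6 CPM (0.01). The main elongation factor gene EEF1A1, chosen after its value was seen, stood at 17683 and 13983 CPM (-0.34).

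Genes that signal to ribosomal protein mRNAs were mixed. Of 17 in the mTOR and LARP list, 7 were lower by at least 20% and 1 was higher by at least 25%, with a median of -0.19. The shares lower (41.2%) and higher (5.88%) compare with 24.5% and 21.9% of all genes tested, and with 34.8% and 9.98% of the abundant genes, whose median was -0.20. EIF4EBP1, a translation repressor that mTOR inactivates, was at 66.1 and 39.2 CPM (-0.75), and CNBP, which binds TOP mRNAs, at 386.9 and 253.4 CPM (-0.61). TSC1, an inhibitor of the pathway, was at 41.7 and 66.4 CPM (0.67), and EIF4EBP2 at 0.09. MTOR and LARP1, named outside the rule, were at -0.12 and -0.43.

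A list of 14 genes for chaperones, importers and assembly factors tied to ribosomal proteins had a median of -0.50, below the core median of -0.39. Of these, 10 were at least 20% lower (71.4%, core genes 72.7%, background 24.5%, abundant protein-coding genes 34.8%). Their ratios ranged from -0.84 to 0.03, and the count was not repeated on other scales. LTV1, an assembly factor of the small subunit, was at 153.5 and 86.0 CPM (-0.84) and PDCD2, the chaperone of RPS2, at 224.1 and 127.4 CPM (-0.81). HEATR3, which carries RPL5, was at -0.09 and the importer gene IPO9 at 0.03. Of the 4 genes of the MDM2 pathway, 0 were past either limit (background 24.5% lower and 21.9% higher), too few genes to set against those shares. NOP53 at -0.12, MDM4 at -0.04 and MDM2 at 0.25 were among them. The 78 mitochondrial ribosomal protein genes had a median of -0.36, close to that of the cytosolic genes, but a standard deviation of 0.28.

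**Figure D4:**
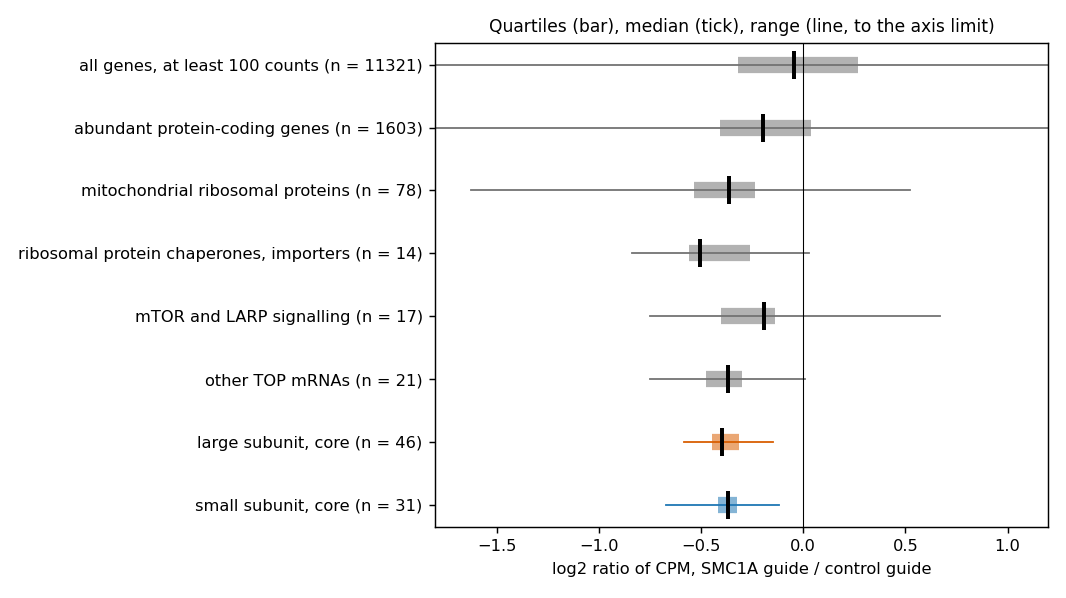
Log2 ratio of CPM, SMC1A guide over control guide (horizontal axis), by group of genes. Bars span the quartiles, ticks mark the median and thin lines the range, drawn to the axis limit where it is wider. The core genes of both subunits have medians of -0.37 and -0.40.

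The start windows were compared with the measured differences. The 46 core genes with the tract at a listed start had a median log2 ratio of -0.38 (-0.58 to -0.15), and the 16 without it a median of -0.40 (-0.67 to -0.12), so both groups span nearly the same range. A run of C and T bases that begins after the listed start, as in the windows of RPL10A and RPL4, was not counted. The 16 can therefore include genes whose mRNA has a tract, and the split cannot compare genes with and without one. The paralog RPL22L1 has the tract at its listed start and had the lowest ratio of the family. RPS27L has none at its listed start and was highest of those with at least 100 counts. RPL7L1 and RPL26L1 have none either, at -0.50 and -0.15, and neither does RPS29, the lowest core gene, at -0.67. The paralogs are too few to relate the tract to the ratio. Counted over windows, of which some genes have several, the tract stood in 46 of 77 core windows (59.7%) and in 4.07% of all 35116 windows. Outside the family, 7.48% of 8451 protein-coding genes with at least 100 counts had it, with a median of -0.11, beside -0.05 for those without. These groups were not matched for expression level, with which the ratio has a trend.

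Short motifs were searched on both strands of the windows of 300 bases, 250 before and 50 from the start. The ETS letters CCGGAAG stood in 26 core windows (33.8%, all windows 10.3%) and the YY1 letters AAGATGG in 8 (10.4%, all windows 5.84%), and the pair overlapped in 0 core windows. The E-box CACGTG stood in 4 (5.19%, all windows 7.26%), those of RPL13A, RPL19, RPS19 and RPS28. The medians of core genes with and without each motif were -0.39 and -0.38 for ETS, -0.41 and -0.38 for YY1 and -0.45 and -0.39 for the E-box. A match describes letters and is not a binding site.

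**Figure D5:**
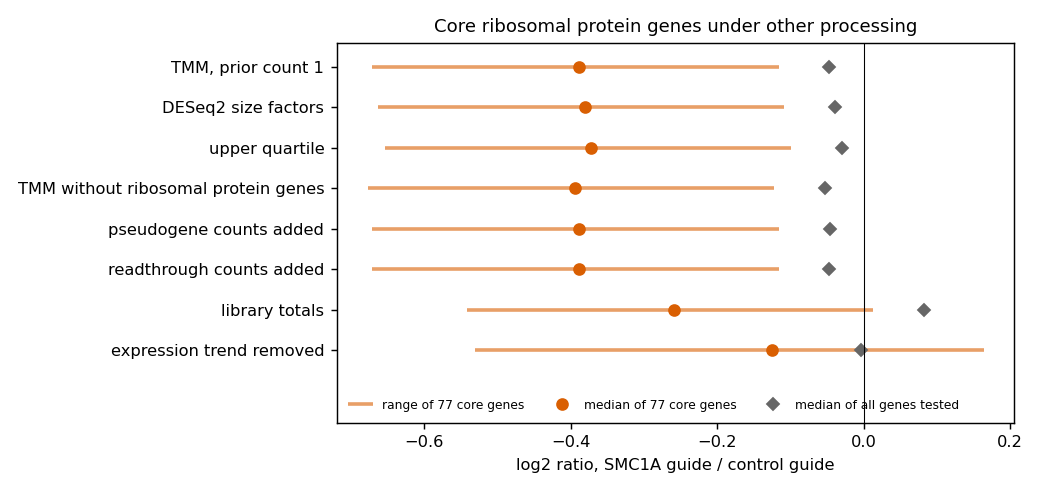
Median (circle) and range (line) of the log2 ratio of the 77 core genes, and median of all genes tested (diamond), under the main processing and 7 alternatives. The core median is between -0.39 and -0.37 in the other settings, -0.26 by library totals and -0.12 with the expression trend removed.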

How the data were processed

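The submitters' processing notes name Salmon 1.10.1, STAR 2.7.10a, DESeq2 1.42.1 and build hg38, without their roles. The authors' annotation was not given in the sources used here, and their deposited table holds estimated counts for each gene, rounded to whole numbers and not scaled. Salmon, where it counts, divides reads between near-identical copies, which this family has many of. Gene identifiers were named from a table that matched 62700 of 62700; positions, gene types and transcript lengths came from GENCODE 29 (GRCh38). Libraries were scaled with TMM (edgeR 4.0.16, R 4.3.3), and log2 ratios used a prior count of 1 and a filter of 100 counts summed over both libraries. Intervals cover counting error only. They are exact (Clopper-Pearson) for log2 ratios, shares and paralog counts per 100 partner counts. For the paralog folds they are exact intervals of the conditional odds ratio, except for RPL7L1, where a normal approximation was used. Reads that carry no molecular identifiers can be copies of 1 molecule. Python 3.11.15, scipy 1.17.1 and pandas 2.3.3 did the rest, and the calculation was tested on simulated data. With 1 library per guide, genes were sorted by size alone, at a ratio of 0.8 or its inverse and at 2-fold. Named genes were the 4 lowest and 4 highest and the 3 highest levels per subunit, all paralogs, and the 2 lowest and 2 highest of each list. Members and lists were chosen with earlier results of these data known. Values of some list members are not reported here.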

Additional observations from a re-analysis of the deposited data

How the results depend on the processing

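Scaling and the trend with expression level, the latter and the readthrough setting chosen after seeing the data, moved the values most. By library totals, which moved the median of all genes tested from -0.05 to 0.08, the medians were -0.26 for core, -0.24 for small subunit, -0.27 for large subunit and -0.24 for TOP genes, with 15 core genes (19.5%) at least 20% lower, beside 15.4% of all genes tested. With the expression trend removed they were -0.12, -0.12, -0.14 and -0.12, with 3 core genes (3.90%) lower, beside 20.6% of all genes tested, and RPL15, RPL22, RPL30, RPL39, RPL41, RPLP0, RPS19, RPS2 and RPS4X lay above 0. The cause was not tested. Adding pseudogene counts gave core shares of 5.89% and 4.98%, and leaving mitochondrially encoded and globin genes out of the total gave 6.57% and 5.60%. The other settings left the core median between -0.39 and -0.37 with 51 to 57 genes at least 20% lower, and 0 core genes passed 2-fold in any setting. Paralog folds moved within their intervals when pseudogene counts were added. No paired analysis was possible because each guide had 1 library, and no library could be left out. At this depth counting error leaves the order of neighboring core genes unresolved, and is widest for the paralogs with few counts.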

Other observations

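The table also holds 1600 pseudogene rows named for a member, of which 260 had at least 1 count and 19 at least 100. Together they took 0.0530% of the control counts and 0.0471% with the SMC1A guide. RPS2P5 stood highest, with 4946 and 4102 counts (281.9 and 232.6 CPM, log2 ratio -0.28), close to the ratio of RPS2 itself (-0.29). Pseudogene rows of RPS2 came to 13.1% of the RPS2 counts in the control library, those of RPL23A to 7.63% of its counts and those of RPS3A to 4.13%. RPS3AP26 had 780 and 476 counts (-0.72), beside -0.35 for RPS3A, and RPL22P1 had 360 and 468 counts (0.37), beside -0.20 for RPL22. These copies resemble their parents, so how the counting shared reads among them is uncertain.

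The 3 readthrough genes of the family each join a member to its neighbor. RPL36A-HNRNPH2 had 1057 and 1121 counts (log2 ratio 0.08, interval -0.05 to 0.20), RPS10-NUDT3 680 and 585 (-0.22, interval -0.39 to -0.06) and RPL17-C18orf32 189 and 229 (0.27, interval -0.01 to 0.56). Their members RPL36A, RPS10 and RPL17 were at -0.25, -0.37 and -0.43.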
